A study of Mus musculus with 4 samples.

Results

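The genes described here encode the histone acetyltransferase subunits of SAGA and ATAC, a pair of transcriptional coactivator complexes. They were chosen by name: Kat2a, Kat2b, Tada2a, Tada2b, Tada3, Kat14, Yeats2, Zzz3, Mbip and Wdr5, which are 10 of the 54146 mouse genes in the deposited table. All 10 were found and all 10 passed the filter on low counts. The series holds 4 TT-seq libraries from mouse ES (embryonic stem) cells kept in serum with LIF, 2 of genotype Supt3 WT and 2 of genotype Supt3 KO. In TT-seq, new RNA is marked in living cells with 4-thiouridine (4SU) and purified, so that counts follow ongoing transcription, and RNA from S. pombe, a fission yeast, that also carried 4SU was added to every library as a spike. The labels describe neither the mutant allele nor how many clones or cultures were used, so every p-value reflects no more than how these libraries spread, and that spread may be technical.

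As background, KAT2A (GCN5) and KAT2B (PCAF) are alternative catalytic subunits that acetylate lysines of histone H3 and sit in either complex. TADA3 is found in both complexes and helps to activate the enzyme. The ADA2 paralogue tells the complexes apart, since TADA2B belongs to SAGA and TADA2A to ATAC. The remaining members belong to ATAC: KAT14 carries an acetyltransferase-type domain of its own, YEATS2 has a YEATS domain that reads acylated lysines, ZZZ3 has a ZZ-type zinc finger that binds the histone H3 tail, MBIP was named for binding the kinase MAP3K12 and WDR5 is a WD-repeat scaffold that is also part of the MLL and SET1 histone methyltransferase complexes. Supt3, the gene named in the genotype, encodes a subunit of the SAGA core and not of the acetyltransferase module.

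Libraries held 13092151 to 19405100 mouse counts and 3462802 to 4836407 S. pombe counts. Replicate 1 of each genotype had fewer mouse counts and more S. pombe counts than replicate 2. These depth pairs were seen in the data, and replicates are numbered in accession order only. Supt3 itself stood at 147 and 158 CPM (counts per 1000000 mouse counts, with library sizes adjusted by TMM, the trimmed mean of M-values) in the WT libraries and at 123 and 140 CPM in the KO libraries. KO over WT gave a log2 fold change of -0.22 ± 0.10 (SE, edgeR adjusted p = 0.232; 0.0467 without KO replicate 2), which does not check the genotype because the allele is not described. Of 4 tested ES markers, Pou5f1 stood at 128 to 154 CPM across the libraries and Nanog was lower in KO (log2 fold change -0.53 ± 0.13, edgeR adjusted p = 0.0362). Zfp42 (-0.62 ± 0.17, edgeR adjusted p = 0.0639) and Esrrb (-0.79 ± 0.22, edgeR adjusted p = 0.0682) had larger negative fold changes but were not called by edgeR. DESeq2 called 2 of these 4 markers (6.93% of tested genes) and limma voom 1 (8.06%). With a term for the depth pairs edgeR called 3 (25.7%). With a library left out, Zfp42 ran from -0.93 to -0.37 and Esrrb from -1.25 to -0.44. The ES markers summed to 1284 and 1403 CPM in WT, and 736 and 1053 CPM in KO. The remaining marker, Sox2, was listed at 0 in all libraries. The deposited span of Sox2 lies whole within that of Sox2ot on the same strand, and reads shared by both genes were not counted. The 5 primitive endoderm markers were all called higher in KO by edgeR, where 8.07% of tested genes were called in either direction. Their summed level was 195 and 242 CPM in WT and 470 and 653 CPM in KO. Of 5 trophoblast markers 3 were called higher, Krt8, Krt18 and Cdx2, while Eomes (log2 fold change 0.15) and Hand1 (1.0) were not. These 5 summed to 19.3 to 23.8 CPM in WT and 62.0 to 69.0 CPM in KO. In the KO libraries Krt8 gave 22.5 and 27.4 CPM of this and Krt18 32.4 and 36.0 CPM. Cdx2 stood at 1.48 CPM or less in every library, and it was not called without KO replicate 1 or without WT replicate 2. The 5 feeder fibroblast markers summed to at most 4.46 CPM in any library, with Postn at 1 count in all. Whether cells of other types had a part in the values of the acetyltransferase genes was not tested. In bulk libraries fewer or more cells of a type cannot be told apart from less or more RNA per cell.

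The stretches upstream of 4 members are shown because the results turn on them: the pair of catalytic paralogues, the member with the highest level per length and the SAGA-specific ADA2 gene. They are RefSeq promoter windows of build GRCm38.p6, the assembly that mm10 names, from which all bases after the start and all bases in an annotated exon were removed. Kat2a is shown from chr11:100712468-100712717 on the minus strand, Kat2b from chr17:53566721-53566860 on the plus strand, Wdr5 from chr2:27514897-27515146 on the plus strand and Tada2b from chr5:36484286-36484535 on the minus strand. Each is written 5′ to 3′, and capitals mark a match to one of the motifs searched.
Kat2a: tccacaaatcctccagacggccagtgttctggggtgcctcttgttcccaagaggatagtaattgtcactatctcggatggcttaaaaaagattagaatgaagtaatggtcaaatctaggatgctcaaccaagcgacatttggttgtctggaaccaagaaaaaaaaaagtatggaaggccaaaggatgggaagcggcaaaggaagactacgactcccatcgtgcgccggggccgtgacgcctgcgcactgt
Kat2b: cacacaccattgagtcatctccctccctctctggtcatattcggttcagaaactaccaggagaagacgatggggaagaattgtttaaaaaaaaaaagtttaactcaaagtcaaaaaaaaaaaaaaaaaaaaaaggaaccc
Wdr5: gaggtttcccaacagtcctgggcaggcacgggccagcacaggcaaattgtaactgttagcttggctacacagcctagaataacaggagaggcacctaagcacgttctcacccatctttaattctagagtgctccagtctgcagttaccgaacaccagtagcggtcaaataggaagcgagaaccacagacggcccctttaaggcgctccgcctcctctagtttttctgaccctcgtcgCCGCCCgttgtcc
Tada2b: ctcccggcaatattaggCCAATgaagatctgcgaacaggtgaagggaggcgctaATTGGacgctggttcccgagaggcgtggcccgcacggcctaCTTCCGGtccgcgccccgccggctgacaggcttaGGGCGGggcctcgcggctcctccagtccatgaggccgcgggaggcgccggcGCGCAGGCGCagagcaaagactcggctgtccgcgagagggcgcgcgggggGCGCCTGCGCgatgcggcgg
The motifs, searched on both strands, were the GC box (GGGCGG), the CCAAT box (CCAAT), the TATA box (TATAAA), an ETS site (CCGGAAG), an NRF1 site, a YY1 site and the cyclic AMP response element (TGACGTCA). Each match was counted, also where matches overlapped. The Kat2a window of 300 bases held no match. In Tada2b it held 1 GC box, 2 CCAAT boxes, 1 ETS site and 2 NRF1 sites. The Wdr5 window held 2 GC boxes, 1 of them in the shown part, and 1 NRF1 site outside it. In Kat2b the single match, a CCAAT box, lay outside the shown part, and this gene had the lowest GC content of the 4 windows (47.0%, against 54.3% in Kat2a, 59.0% in Wdr5 and 74.3% in Tada2b; the median of 32851 promoter windows was 52.7%). Over all 13 windows of the 10 members, since Kat2b and Zzz3 have several, a GC box occurred in 8 (61.5%), against 35.7% of all windows. The TATA box occurred in 0 of 13, against 13.6% of all windows. A match describes letters and not a bound site.

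All 10 members had more counts per length than the median tested gene. Levels per length are CPM divided by the kilobases of deposited gene span not shared with another gene on the same strand. Gene spans and not exons were taken as the length, because the counts pointed to whole spans as the counted feature. All 3132 genes that lie whole inside a same-strand gene of at least 2000 counts had 0 counts in every library. Of genes not inside one, 41.5% had 0 counts. Only Kat14 lost span in this way: 87.8% of it was free, and the rest is shared with Pet117, which is listed at 0. The median over 16477 tested genes was 0.757 CPM per kb. Wdr5 was highest among the members with a mean over the 4 libraries of 6.46 CPM per kb (range 5.55 to 7.24), above 93.7% of tested genes. Zzz3 followed at 5.21 (4.66 to 5.67) and Mbip at 4.00 CPM per kb (3.62 to 4.26). Below them came Tada2a at 2.91, Kat2a at 2.71, Yeats2 at 2.49 and Kat14 at 2.28 CPM per kb, 4 genes in which the ranges of neighbours in the order overlapped. Kat2b stood at 1.75 (1.35 to 2.05), Tada2b at 1.58 (1.45 to 1.68) and Tada3 at 1.31 CPM per kb (1.22 to 1.40), the last above 62.3% of tested genes. The ranges of Wdr5 and Zzz3 overlapped, as did those of Kat2b and Tada2b, while Zzz3 and Mbip, Mbip and Tada2a, Kat14 and Kat2b, and Tada2b and Tada3 were apart. The highest mean was 4.94 times the lowest. Exons take up different shares of these spans, and the effect of that on levels per length and on paralogue ratios was not tested.

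**Figure D1:**
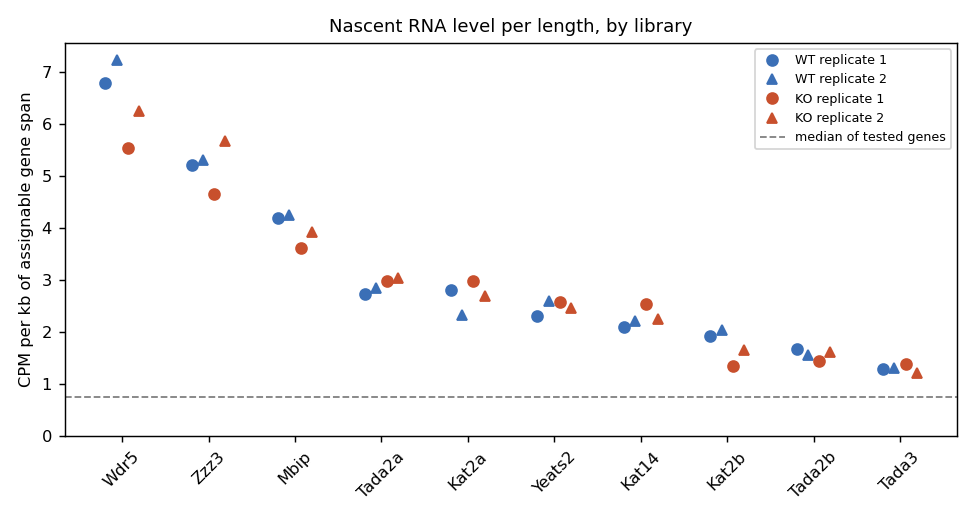
Nascent RNA level of each gene (y axis, TMM-scaled CPM per kb of gene span free of same-strand genes) in each of the 4 libraries, WT in blue and KO in orange, with replicate 1 as circles and replicate 2 as triangles. The dashed line is the median tested gene at 0.757 CPM per kb, and all points of the 10 genes lie above it, with Wdr5 highest and Tada3 lowest by mean.

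The genotype comparison asks whether cells labelled Supt3 KO transcribe the genes of these modules at another rate. By the quasi-likelihood test of edgeR, 0 of the 10 members had an adjusted p under 0.05, where 8.07% of 16789 tested genes did. At an unadjusted p under 0.05 there were 2, Kat2b and Wdr5, against 22.9% of tested genes. DESeq2 called 1 of the 10 (Kat2b), against 6.93% of genes, and limma voom called 0, against 8.06%. DESeq2 on all genes with a count, a setting added after the data were seen, called 0, against 3.75%. The members' log2 fold changes ran from -0.40 to 0.15 with a median of -0.01, beside a median of 0.01 over all tested genes, and 5 were positive and 5 negative. With TMM scaling, no 95% interval of the 10 fold changes held a 2-fold change in either direction, and that of 1 gene, Kat2b, held a 1.5-fold change. This does not extend to the spike scale, where standard errors were 0.63 to 0.80.

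**Figure D2:**
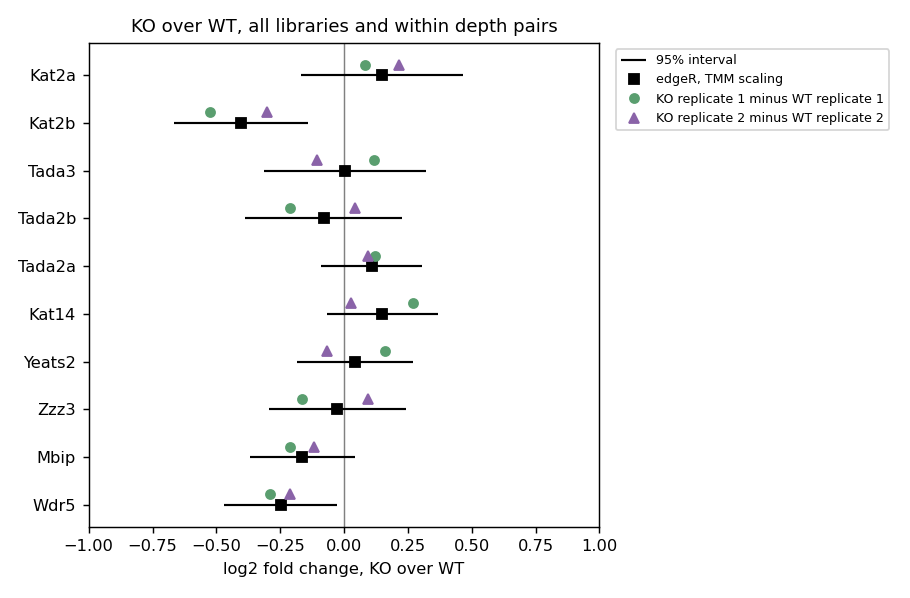
Log2 fold change of KO over WT (x axis) of each gene (y axis). Squares are the edgeR estimates with TMM scaling and their 95% intervals as lines. Circles are KO replicate 1 minus WT replicate 1 and triangles KO replicate 2 minus WT replicate 2. The intervals of Kat2b and Wdr5 alone leave out 0, before adjustment for the number of genes tested.

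Kat2b, the catalytic paralogue also called PCAF, had the most negative fold change of the members. Its level was 205 and 217 CPM in the WT libraries and 142 and 176 CPM in the KO libraries. Both KO libraries lay below both WT libraries, with KO replicate 1 the lowest. The WT mean was 211 ± 8.22 CPM and the KO mean 159 ± 23.6 CPM (SD, n = 2 each), a log2 fold change of -0.40 ± 0.12 (SE; 95% interval -0.67 to -0.14) and a ratio of 0.756. The edgeR adjusted p was 0.0702, and 27.3% of tested genes had a larger absolute fold change. The difference was -0.52 between the libraries with fewer counts and -0.30 between those with more, against a gap of 0.08 between the WT libraries and 0.30 between the KO libraries. The call depended on settings: the adjusted p was 0.0484 in DESeq2 on the same genes, 0.0579 in DESeq2 on all genes with a count, 0.0125 in edgeR without a low-count filter (8.34% of genes passed), 0.0645 in limma voom and 1.09e-07 with a term for the depth pairs, under which 25.7% of all genes passed. Without KO replicate 2 the log2 fold change was -0.56 (edgeR adjusted p = 0.000136, in a fit that called 16.4% of genes), and without KO replicate 1 it was -0.26 (edgeR adjusted p = 0.172). Kat2b (ENSMUSG00000000708) lies on chromosome 17, bases 53566861 to 53672720 of mm10, plus strand.

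Kat2a, the paralogue known as GCN5, did not share that direction with TMM scaling, although both were negative on the spike scale. It stood at 21.7 and 18.0 CPM in the WT libraries against 23.0 and 20.8 CPM in the KO libraries, and the groups overlapped. The log2 fold change was 0.15 ± 0.14 (SE; 95% interval -0.17 to 0.46; edgeR adjusted p = 0.589), smaller than the gap of 0.28 between the WT libraries. Kat2a (ENSMUSG00000020918, chromosome 11 from 100704746 to 100712465, minus strand) is 7.72 kb long against 105.86 kb for Kat2b, and it took 297 to 372 counts in a library against 1924 to 4149.

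Per kb of span, Kat2b had fewer counts than Kat2a in every library. Annotated exons cover 3480 bases of the 7.72 kb of Kat2a and 4867 bases of the 105.86 kb of Kat2b. Whether this difference in exon share bears on the ratio was not tested. The ratio of Kat2b to Kat2a in CPM per kb was 0.688 and 0.880 in WT and 0.451 and 0.616 in KO, with means of 0.784 ± 0.136 and 0.533 ± 0.116 (SD, n = 2 each). Such a ratio within a library needs no scaling between libraries. Both KO values lay below both WT values, and the log2 ratio differed by -0.56 (-0.61 between the libraries with fewer counts, -0.51 between those with more). An exact two-sided permutation test over libraries gave p = 0.333, which is the smallest value that 2 against 2 libraries allow. In both genotypes the ratio was higher in the library with more counts.

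**Figure D3:**
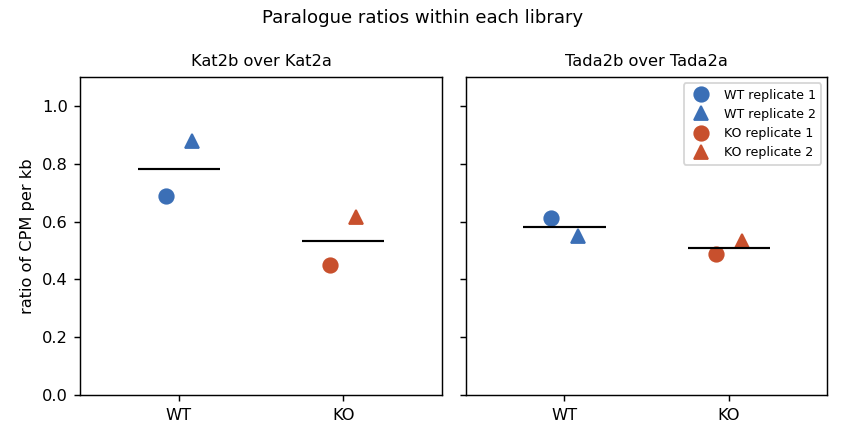
Ratio of CPM per kb within each library (y axis) for Kat2b over Kat2a (left) and Tada2b over Tada2a (right), WT in blue and KO in orange, with replicate 1 as circles, replicate 2 as triangles and horizontal lines at the means. The Kat2b ratio runs from 0.451 to 0.880 and the Tada2b ratio from 0.486 to 0.613.

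Tada3, the adaptor of both complexes, was the member closest to no difference. Its level was 15.3 and 15.6 CPM in WT and 16.6 and 14.5 CPM in KO. The KO libraries lay on either side of the WT pair, and the log2 fold change was 0.00488 ± 0.140 (SE; 95% interval -0.31 to 0.32; edgeR adjusted p = 0.989). This gene (ENSMUSG00000048930, chromosome 6, bases 113366025 to 113377883, minus strand) also had few counts, 209 to 299 in a library.

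The ADA2 paralogues were likewise not called. Tada2b, the SAGA form (ENSMUSG00000029196, chromosome 5, bases 36473670 to 36484285, minus strand), stood at 17.9 and 16.7 CPM in the WT libraries against 15.4 and 17.2 CPM in the KO libraries, so the groups overlapped (log2 fold change -0.08 ± 0.14; edgeR adjusted p = 0.786). It overlaps Grpel1, a gene on the other strand, by 411 bases; Grpel1 had 947 to 1303 counts in a library and a log2 fold change of 0.03 (edgeR adjusted p = 0.889). Tada2a, the ATAC form (ENSMUSG00000018651, chromosome 11, bases 84078920 to 84129600, minus strand), stood at 139 and 145 CPM in the WT libraries against 151 and 154 CPM in the KO libraries. Both KO libraries were above both WT libraries by a small margin (log2 fold change 0.11 ± 0.09; edgeR adjusted p = 0.522). The Tada2b to Tada2a ratio in CPM per kb was 0.613 and 0.551 in WT and 0.486 and 0.531 in KO, below 1 in all 4 libraries. On the log2 scale it differed by -0.19 between genotypes, -0.34 in the depth pair with fewer counts and -0.05 in the other (exact two-sided permutation test, p = 0.333, the smallest possible here).

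Among the ATAC subunits, Wdr5 had the most negative fold change. It stood at 145 and 155 CPM in the WT libraries against 119 and 134 CPM in the KO libraries. All KO values were below all WT values, with means of 149.9 ± 6.93 and 126 ± 10.8 CPM (SD, n = 2 each) and a log2 fold change of -0.25 ± 0.10 (SE; 95% interval -0.47 to -0.03; edgeR adjusted p = 0.171). The depth pairs gave -0.29 and -0.21, and the gaps between libraries of a genotype were 0.09 in WT and 0.17 in KO. Wdr5 (ENSMUSG00000026917, chromosome 2 from 27515157 to 27536535, plus strand) passed the edgeR test without KO replicate 2 (-0.34, adjusted p = 0.0278) and with the depth pair term (adjusted p = 0.00315), and in no other fit with TMM scaling or another mouse-based scaling. Mbip (ENSMUSG00000021028, chromosome 12, bases 56328303 to 56345894, minus strand) stood at 73.7 and 74.9 CPM in the WT libraries against 63.7 and 69.0 CPM in the KO libraries. Its KO libraries were also below both WT libraries, by a log2 fold change of -0.16 ± 0.09 (edgeR adjusted p = 0.332).

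Kat14 (ENSMUSG00000027425, chromosome 2, bases 144368983 to 144407676, plus strand) stood at 71.6 and 75.3 CPM in the WT libraries against 86.4 and 76.8 CPM in the KO libraries, where KO replicate 1 was the high one. The log2 fold change was 0.15 ± 0.10 (edgeR adjusted p = 0.407), and it was 0.27 in the depth pair with fewer counts and 0.03 in the other. Yeats2 (ENSMUSG00000041215, chromosome 16, bases 20141063 to 20232573, plus strand) stood at 212 and 237 CPM in the WT libraries against 237 and 226 CPM in the KO libraries (log2 fold change 0.04 ± 0.10; edgeR adjusted p = 0.850). Zzz3, the member with the most counts (4235 to 6853 in a library), stood at 351 and 358 CPM in the WT libraries against 314 and 382 CPM in the KO libraries. In Yeats2 and Zzz3 the groups overlapped. The KO libraries lay on both sides of the WT pair for Zzz3, and its log2 fold change was -0.03 ± 0.12 (edgeR adjusted p = 0.927). Zzz3 (ENSMUSG00000039068, chromosome 3, bases 152395473 to 152462826, plus strand) shares 12 bases with Ak5 on the other strand, a gene with 54 to 71 counts in a library.

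**Figure D4:**
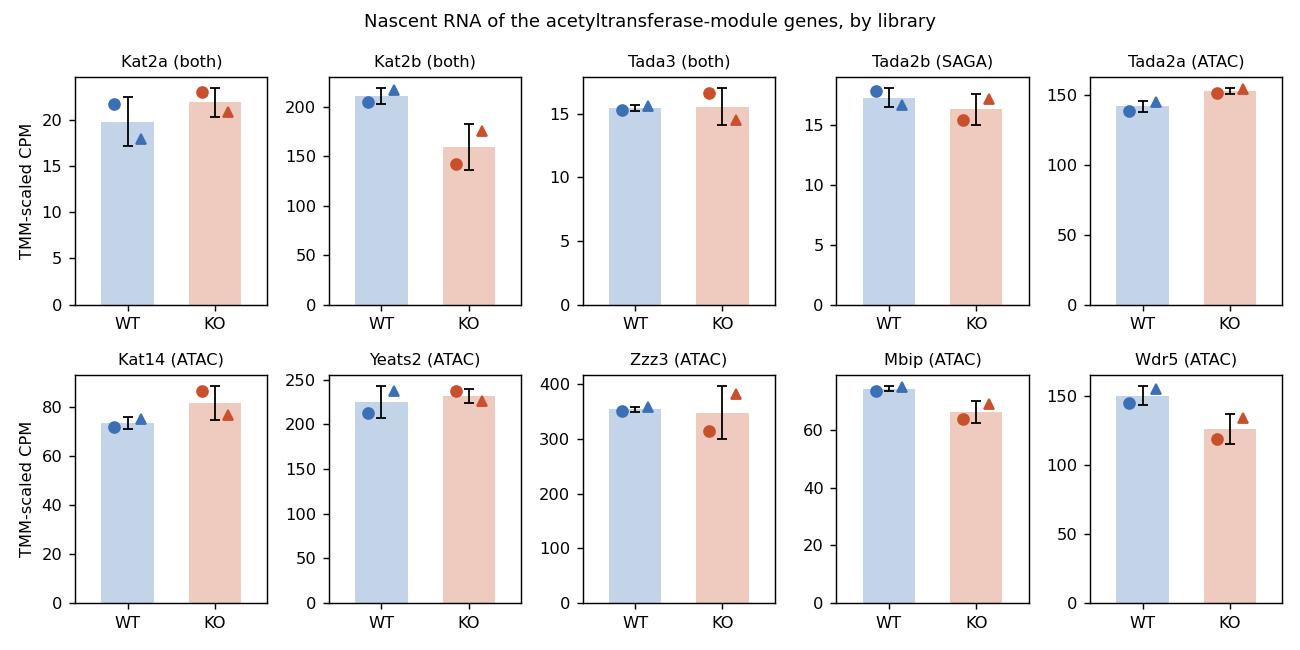
TMM-scaled CPM (y axis, from 0) of the 10 genes in WT (blue) and KO (orange); bars are means of 2 libraries, error bars 1 SD, circles replicate 1 and triangles replicate 2, and the complex is given in brackets. Kat2b, Mbip and Wdr5 have both KO points below both WT points, Tada2a and Kat14 have both above, and the other 5 overlap.

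In 5 of the 10 members the WT and KO libraries did not overlap, and this was so for 52.7% of all tested genes. Of these, 3 were lower in KO (26.0% of tested genes) and 2 were higher (26.7%). The direction was the same in both depth pairs for 6 members, against 72.2% of tested genes. The fold change was larger than both gaps between libraries of a genotype for 4 of the 10 members, Kat2b, Tada2a, Mbip and Wdr5, and for 40.0% of tested genes.

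Scaling by the S. pombe spike moved all 10 fold changes below 0, as it moved the median tested gene from 0.01 to -0.23. The members' median was then -0.24, with Kat2a at -0.07 and Kat2b at -0.61 as the extremes. On this scale edgeR called 0 of the 10, against 0.101% of 16789 genes. At an unadjusted p under 0.05 there were 0, against 3.78%, and DESeq2 with spike factors called 0, against 0.0774%. WT and KO libraries overlapped in all 10, while they were apart for 17.3% of tested genes. Standard errors were 0.63 to 0.80, because replicates of a genotype differed widely in mouse counts per S. pombe count (3.25 and 5.60 in WT, 2.71 and 4.86 in KO). In counts per 1000000 S. pombe counts with TMM adjustment, Kat2b stood at 676 and 1197 in WT and 396 and 830 in KO, and the groups overlapped. On the same scale Wdr5 stood at 479 and 856 in WT and 330 and 632 in KO, also with overlap. Within depth pairs the spike-scaled difference of Kat2b was -0.77 and -0.53, and that of Wdr5 -0.54 and -0.44. With a term for these pairs 4 members passed (Kat2b, Wdr5, Mbip and Zzz3, all lower), and so did 40.7% of all genes, 35.8% as lower. In the authors' deposited table, whose fold changes are shrunken, Kat2b had a log2 fold change of -0.43 (p = 0.255, adjusted p = 0.999), Wdr5 -0.34 (p = 0.370) and Kat2a -0.06 (p = 0.880). That table has 8 genes of 29514 under an adjusted p of 0.05, and 0 of the 10 members are among them.

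Genes near Kat2b on chromosome 17 were looked at for the same direction. Within 1 Mb of Kat2b 5 other genes were tested, all 5 with a negative fold change, where 8217 of 16789 tested genes had one. Their median was -0.22, with 1 call. That call was Kcnh8, a potassium channel gene about 0.96 Mb upstream (-0.50 ± 0.10, edgeR adjusted p = 0.0186, but 0.0949 without WT replicate 2). The other 4 lay closer, with the farthest start, that of Sgo1, 0.122 Mb from the Kat2b start. Of these, Efhb stood at -0.22 ± 0.24 (edgeR adjusted p = 0.654), Sgo1 at -0.13 ± 0.10 (edgeR adjusted p = 0.479), Rab5a at -0.04 ± 0.10 (0.854 as edgeR adjusted p) and the low-count Pp2d1 at -0.52 ± 0.63 (0.685 as edgeR adjusted p). These neighbours are named after their values were seen. Around Mbip 2 of 10 tested genes within 1 Mb were negative, and none was below Mbip itself. Around Wdr5 15 of 26 were negative, with a median of -0.01. The neighbours of the other members had medians between -0.07 (Zzz3) and 0.16 (Kat14).

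**Figure D5:**
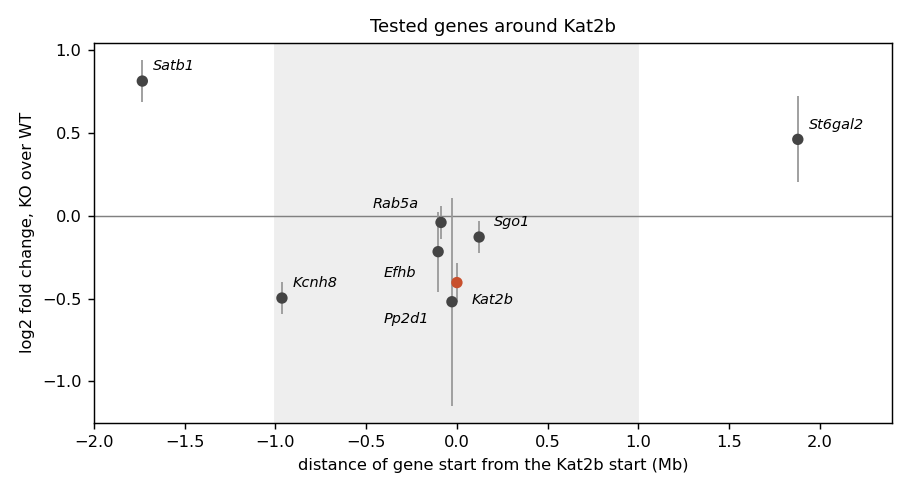
Log2 fold change of KO over WT with its SE (y axis) for each tested gene against the distance of its start from the Kat2b start in Mb (x axis); the shaded band is 1 Mb on each side and Kat2b is in orange. All 5 other genes in the band are below 0, from -0.52 to -0.04. Outside the band Satb1 is at 0.81 and St6gal2 at 0.46.

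Related genes were described by lists, 69 genes in 9 lists, of which 67 were tested. Of these, 1 was called by edgeR, where 8.07% of all tested genes were, and 11 had an unadjusted p under 0.05, where 22.9% of all tested genes did. The remaining subunits of the same modules held no edgeR call, 0 of 4, with a median of 0.00021. Sgf29, the tudor-domain subunit of both modules and named here beside the rule, stood at 36.4 and 39.6 CPM in the WT libraries against 42.2 and 40.6 CPM in the KO libraries (log2 fold change 0.12, edgeR adjusted p = 0.544), and Dr1, a histone-fold subunit of ATAC, at -0.07. Of 12 tested subunits of the SAGA core and its TRRAP and splicing-factor parts 0 passed (median -0.04), with Sf3b3, a splicing factor subunit, at -0.02. Taf9 was listed at 0, as its span lies whole inside Ak6 on the same strand. Of 8 genes of the SAGA deubiquitinase list 0 passed (median 0.03; Atxn7l1 at -0.05).

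Of 8 other nuclear acetyltransferase genes 0 passed in edgeR (median 0.01). The one with the most counts, Kat6b, stood at 1504 and 1790 CPM in the WT libraries against 941 and 1336 CPM in the KO libraries, a log2 fold change of -0.53 ± 0.18 with an edgeR adjusted p = 0.122, but -0.81 and 0.000113 without KO replicate 2. Histone deacetylases (0 of 7, median -0.04; Sirt1 at -0.12), readers of acetylated lysine (0 of 8, median -0.02), genes of acetyl-CoA supply (0 of 6, median -0.05; Acly, which makes acetyl-CoA from citrate, at -0.08) and kinases of the JNK branch around MBIP's partner MAP3K12 (0 of 5, median 0.12; Map2k4 at 0.23) held no call. Fold changes ran from -0.26 to 0.40 in the deacetylases and from -0.19 to 0.11 in the readers. They ran from -0.64 to 0.06 in acetyl-CoA supply and from -0.14 to 0.36 in the kinases. The lowest of these was Acss2, of acetyl-CoA supply (-0.64 ± 0.20, edgeR adjusted p = 0.0878). Map2k7 had 1 count in all, with 1.36% of its span free of same-strand genes.

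The single call was in the methyltransferase partners of WDR5, of which 1 of 9 was lower and 0 higher, with a list median of -0.07. Dpy30, a core subunit of the MLL and SET1 complexes, stood at 101 and 117 CPM in the WT libraries against 47.0 and 53.4 CPM in the KO libraries. The groups were far apart, and Dpy30 fell by 1.12 on the log2 scale (SE 0.11, edgeR adjusted p = 0.00139), with -1.11 and -1.13 in the depth pairs. It fell in each of the 4 edgeR fits that left out a library, by 1.01 to 1.23. On the spike scale without a term for the depth pairs the call was lost. The log2 fold change was -1.36 ± 0.74 (SE), with an adjusted p of 0.999997 in edgeR and 0.907 in DESeq2. Dpy30 passed in the spike fit with that term (log2 fold change -1.36, edgeR adjusted p = 1.12e-07), as did 40.7% of all genes. Dpy30 lies on chromosome 17, as do Kat2b and Supt3, the gene named in the genotype. Whether this position bears on its level was not tested.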

How the data were processed

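TT-seq was measured in 2 Supt3 WT and 2 Supt3 KO libraries of mouse ES cells. Per the labels' protocols, labelled RNA with its S. pombe spike was purified, and the libraries keep strand and had no ribosomal depletion. Tools in the submitters' processing notes are STAR 2.5.3, DESeq2 1.16.1, HTSeq 0.6.1p1, bcl2fastq 2.20.0.422 and cutadapt 1.10, with build mm10. Which feature was counted, by which strand setting and annotation, was not given in the sources used here. In the files, genes inside another gene on the same strand had 0 counts (3132 of 3132), while of those inside one on the other strand only 53.5% did, as reads counted by strand over whole gene spans would give, with shared reads dropped.

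The authors deposited raw counts for the genes of mouse and of S. pombe. The deposited comparison table repeats the mouse counts (100% of values equal) and adds a normalized signal (counts divided by a factor per library), a log2 fold change shrunken by a beta prior per the table's name, and p-values. Its coordinates equal those of GENCODE M21 for all 10 members.

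Genes were kept by filterByExpr (minimum count 10), which left 16789. The main test was edgeR 4.0.16 (R 4.3.3), quasi-likelihood with TMM factors and Benjamini-Hochberg adjustment over all tested genes. For the spike fit, library size was the S. pombe total multiplied by a TMM factor from the yeast genes. SE is the log2 fold change over the square root of F. The common biological coefficient of variation was 0.0952 with TMM and 0.363 with the spike. Alternatives were DESeq2 1.42.0, limma voom 3.58.1, other scalings, no filter, a depth pair term and each library left out; a genotype left with 1 library is assumed to vary like the other. DESeq2 on all genes with a count was added after the data were seen. Counting error was 6.93% at the fewest counts of a member in a library (208) and 1.21% at the most (6853), for counting only.

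The members, lists, motifs and tests were chosen with earlier results of these data known. Named were the 10 members, Supt3, genes that overlap a member and, per list, up to 2 called genes with the largest change or, where none was called, the gene with most counts; 1 such gene is not reported here.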

Additional observations from a re-analysis of the deposited data

How the results depend on the processing

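Over 11 alternatives for each of the 10 members, 92 of 110 log2 fold changes kept their direction and their side of the threshold, 6 passed it and 12 changed sign. The number of members called, 0 with edgeR and TMM scaling, was 1 in DESeq2 and 1 without a low-count filter, 2 with the depth pair term, and 0 to 2 when a library was left out, the 2 being without KO replicate 2. DESeq2 on all genes with a count, DESeq2 size factors in edgeR, limma voom and the spike fit gave 0. On the spike scale the number was 0, and 4 with the depth pair term. Of the related genes 1 was called, against 2 in DESeq2, 2 in DESeq2 on all genes with a count, 4 without a filter, 16 with the depth pair term, 0 with the spike, and 1 to 8 when a library was left out (8 without KO replicate 2, 2 without WT replicate 1). Of all genes 1355 were called, against 4307 with the depth pair term, 2460 without a filter, 17 with the spike, and 818 (without WT replicate 2) to 2824 (without KO replicate 2) when a library was left out. The cause of these shifts was not tested.

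The spike turned Kat2a (-0.075), Tada2a (-0.13), Kat14 (-0.11), Yeats2 (-0.22) and Tada3 (-0.25) negative. Tada3, near 0 throughout, was -0.00018 in DESeq2, -0.00066 with the depth pair term and -0.0049 in limma voom, and ran from -0.092 to 0.10 when a library was left out. With a library left out Yeats2 ran from -0.042 (without WT replicate 1) to 0.13, Zzz3 from -0.18 to 0.11 (without KO replicate 1) and Kat2b from -0.56 to -0.26. The Kat2b to Kat2a log2 ratio differed by -0.79 to -0.34 and the Tada2b to Tada2a ratio by -0.27 to -0.12. The depth pairs were defined from library totals and the term leaves 1 residual degree of freedom. The labels give no replicate numbers and pair no libraries, so this term is not a pairing by design.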
